A study of Bos taurus with 90 samples.

Results

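The miR-34 and miR-449 family is a group of microRNAs (miRNAs) that share a seed, the stretch at the 5′ end with which a miRNA pairs with its target mRNAs. The members described here were chosen by name: miR-34a, miR-34b, miR-34c and miR-449a, 4 of the 388 miRNAs listed in any of 5 bovine tissues. miR-34a, miR-34c and miR-449a were listed in all 5 tissues and belonged to the 289 miRNAs of which that was true. miR-34b was listed in duodenum, jejunum and mammary gland only, so it has no value in rumen and liver. The tissues were mammary gland, liver and, by their labels, the epithelium of the rumen and of the intestinal segments duodenum and jejunum. All were taken from each of 18 mid-lactation Chinese Holstein dairy cows. The cows were fed a diet based on alfalfa hay, corn stover or rice straw, with 6 cows per diet, so that each tissue was represented by 18 small RNA libraries and the series by 90. The labels name no treatment other than diet, and each library came from 1 tissue of 1 cow. Neither an age nor a batch was given for any group.

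The miR-34 genes are known as direct transcriptional targets of the tumour suppressor p53, and their products restrain the cell cycle by lowering cyclins, cyclin-dependent kinases and other proliferation factors. miR-34b and miR-34c are cut from one primary transcript, whereas miR-34a has a gene of its own. miR-449a lies within an intron of CDC20B and is best known, with miR-34b and miR-34c, from multiciliated epithelial cells, where these miRNAs promote the formation of cilia. In the RefSeq annotation of the ARS-UCD2.0 assembly, MIR34B and MIR34C were next to each other on chromosome 15, between HOATZ and LAYN. MIR34A was on chromosome 16 beside GPR157, and MIR449A was on chromosome 20 between MIR449B and GPX8, in a run of miR-449 genes that starts beside CDC20B.

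Levels are given in CPM, the reads of one miRNA after every library has been scaled to the same total of reads mapped to annotated miRNAs, so every level is a share of a library's miRNA reads. In bulk tissue, fewer cells of a type and less RNA per cell cannot be told apart. Levels of different members are compared as shares of reads, because adapter ligation and amplification differ with the sequence, and because reads that fit more than one related miRNA may have been split among them. The libraries held 937556 to 15621501 miRNA reads, so 3 reads were worth 0.192 to 3.20 CPM. The 3 libraries with fewer than 2000000 reads were all from mammary gland, namely alfalfa hay 1, rice straw 1 and rice straw 5.

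Marker miRNAs were checked against the tissue labels. miR-122, the hepatocyte miRNA, was at 8671 to 12721 CPM in liver, at 0 to 48.5 CPM in mammary gland, and not listed in rumen, duodenum or jejunum. The intestinal epithelial miR-192 had medians of 259385 CPM in duodenum and 192260 CPM in jejunum against 2759 CPM in rumen and 2503 CPM in mammary gland. Its liver samples, at 113678 to 188688 CPM, overlapped those of jejunum (119672 to 249455 CPM), so it did not set these 2 tissues apart. miR-205, a miRNA of stratified and myoepithelial cells, ranged from 23016 to 52132 CPM in rumen. One library stood apart: liver alfalfa hay 2 held 1525 CPM of miR-205, whereas the highest of the other 17 liver libraries held 13.0 CPM. Its summed epithelial markers (miR-141, miR-200a, miR-200b, miR-200c and miR-429) were also above those of the others, at 1896 against at most 737 CPM. It held 94.3 CPM of miR-34a, 9.60 CPM of miR-34c and 13.8 CPM of miR-449a, and called differences from liver are therefore also given without it.

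miR-34a was the most abundant member in every tissue. Its lowest, median and highest levels were 129, 190 and 281 CPM in rumen, and its mean there was 185.7 ± 35.8 CPM (SD, n = 18). In duodenum the 3 values were 75.2, 108 and 149 CPM, around a mean of 108.7 ± 21.6 CPM (SD, n = 18). Jejunum was close to duodenum, with values of 72.3, 102 and 134 CPM and a mean of 105.0 ± 19.9 CPM (SD, n = 18). The first 3 tissues thus kept miR-34a within narrow ranges, whereas liver and mammary gland did not. In liver it ran from 18.3 through a median of 39.1 to 199 CPM (mean 51.1 ± 41.7 CPM, SD, n = 18). In mammary gland it ran from 14.4 through a median of 91.6 to 319 CPM (mean 116.7 ± 81.6 CPM, SD, n = 18). By mean level miR-34a ranked between 122 of 340 listed miRNAs in rumen and 165 of 330 in liver, so it was a miRNA of middle abundance.

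miR-34c was low in the digestive tract and liver and was highest in mammary gland. Its lowest, median and highest levels in mammary gland were 6.40, 64.1 and 151 CPM, with a mean of 63.3 ± 42.0 CPM (SD, n = 18). In duodenum they were 5.37, 12.2 and 50.8 CPM (mean 15.03 ± 10.3 CPM, SD, n = 18) and in jejunum 1.46, 8.53 and 42.1 CPM (mean 10.3 ± 9.81 CPM, SD, n = 18). Liver and rumen had the lowest means, 6.16 ± 4.33 CPM and 4.20 ± 3.13 CPM (SD, n = 18 each). Its rank by mean was 153 of 328 miRNAs in mammary gland and 272 of 340 in rumen. Of the 18 mammary gland samples, 16 lay above every rumen sample, 14 above every liver sample, 12 above every jejunum sample and 11 above every duodenum sample.

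miR-34b, which shares its transcript with miR-34c, was present at a few CPM where it was listed. It ranged from 2.31 to 14.5 CPM in mammary gland around a median of 6.10 CPM (mean 6.66 ± 3.23 CPM, SD, n = 18). In duodenum the median was 1.93 CPM with a range of 0.92 to 7.31 CPM, and in jejunum the median was 1.62 CPM with a range of 0.10 to 6.53 CPM. At these levels the counts were small, and 2 jejunum samples held fewer than 3 reads of miR-34b. miR-449a was low in all 5 tissues, with means of 7.69 ± 7.10 CPM in liver, 5.67 ± 2.02 CPM in jejunum, 4.54 ± 1.37 CPM in duodenum, 4.13 ± 2.83 CPM in rumen and 2.66 ± 1.09 CPM in mammary gland (SD, n = 18 each). Its widest range was in liver, from 1.43 to 29.1 CPM.

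**Figure D1:**
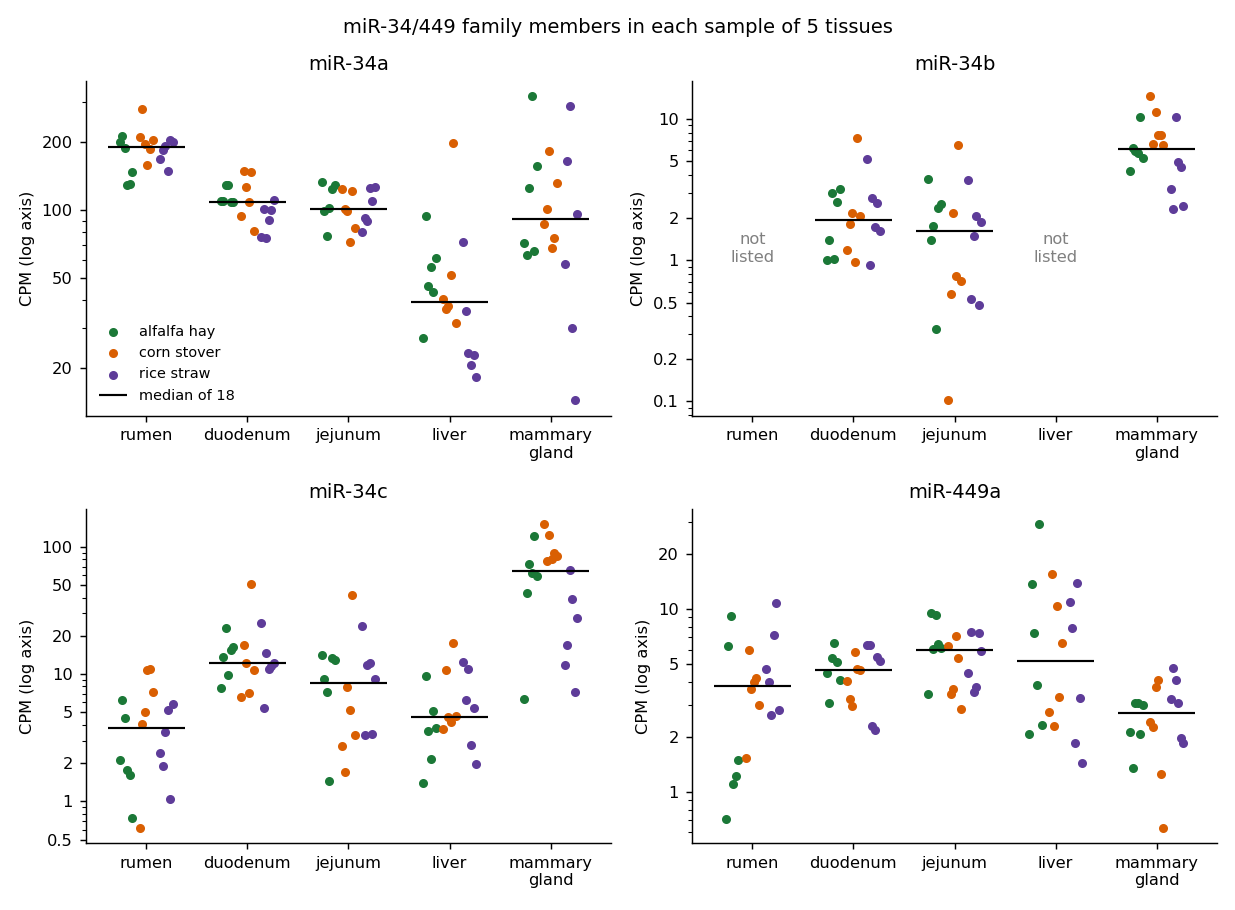
Level of each member of the miR-34 and miR-449 family by tissue, in CPM on a log axis; each point is 1 cow's sample (18 per tissue, coloured by diet) and the bars mark medians. miR-34a was above the other members in most samples, with a median of 190 CPM in rumen and 39.1 CPM in liver, whereas miR-34c stood highest in mammary gland, with a median of 64.1 CPM.

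The tissues were compared in pairs by limma on log2(CPM + 1), a scale that understates the change of miRNAs near 1 CPM. The p-values were adjusted over miRNAs listed in both tissues and above 1 CPM in over 50% of the samples of either. Each difference has 36 samples behind it, from 18 cows that each gave both tissues. The main fit had no term for the cow and so did not use this pairing, and the cow as a block was an alternative. A miRNA was called at an adjusted p under 0.05. Tissue differences were the rule among all miRNAs. The share called was 75.8% between rumen and duodenum, 73.8% between rumen and jejunum, 84.5% between rumen and liver and 71.9% between rumen and mammary gland. It was 85% between duodenum and liver, 75.9% between duodenum and mammary gland, 85.3% between jejunum and liver, 70.5% between jejunum and mammary gland and 65% between liver and mammary gland. Only duodenum and jejunum were alike, with 24.2% called. Of the 33 differences that the family allowed, 20 were called, and a called member is no more than most miRNAs did in these pairs.

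miR-34a was higher in rumen than in each of the other tissues. The difference on the log2 scale was 0.77 ± 0.0983 (SE) against duodenum (adjusted p = 4.83e-09) and 0.82 ± 0.098 against jejunum (adjusted p = 1.24e-09). Against liver it was 2.08 ± 0.199 (adjusted p = 2.22e-12), or 2.15 without liver alfalfa hay 2. Of the 18 rumen samples, 14 lay above every duodenum sample, 16 above every jejunum sample and 7 above every liver sample. Against mammary gland the difference was 0.97 ± 0.253 (adjusted p = 0.000751). None of the rumen samples lay above every mammary gland sample, and this last call was lost on recovered reads, at 0.36 with edgeR and 0.38 with DESeq2.

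Liver had the least miR-34a. The level was lower there than in duodenum by 1.32 (adjusted p = 9.7e-08), than in jejunum by 1.27 (adjusted p = 2.28e-07) and, with the sign of liver minus mammary gland, by -1.11 ± 0.302 than in mammary gland (adjusted p = 0.00146). Without liver alfalfa hay 2 these were 1.38, 1.33 and -1.18. No difference was called among duodenum, jejunum and mammary gland: duodenum minus jejunum was 0.05 (95% interval -0.15 to 0.24, adjusted p = 0.734), duodenum minus mammary gland was 0.20 (-0.30 to 0.71, adjusted p = 0.47) and jejunum minus mammary gland was 0.15 (-0.35 to 0.66, adjusted p = 0.599). By mean CPM the order was the other way, with mammary gland at 116.7 CPM above duodenum at 108.7 CPM and jejunum at 105.0 CPM.

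miR-34c was higher in mammary gland than in each of the other tissues, and this held under every scaling and with edgeR and DESeq2. The difference, given as the other tissue minus mammary gland, was -3.44 ± 0.353 (SE) for rumen (adjusted p = 1.77e-11), -2.95 ± 0.344 for liver (adjusted p = 5.63e-10, and -2.998 without liver alfalfa hay 2), -2.48 ± 0.378 for jejunum (adjusted p = 2.55e-07) and -1.76 ± 0.333 for duodenum (adjusted p = 1.18e-05). Within the rice straw diet alone the last 2 were -1.24 and -0.79 and were not called. Among the other tissues miR-34c was higher in duodenum than in rumen (rumen minus duodenum -1.68 ± 0.256, adjusted p = 2.09e-07) and than in liver (1.19, adjusted p = 2.24e-05), and higher in jejunum than in rumen (-0.96, adjusted p = 0.00699). Without liver alfalfa hay 2 the difference of duodenum and liver was 1.24. Within corn stover alone none of these 3 differences was called, at -1.21, 0.95 and -0.15 in the same order.

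The 3 remaining pairs of miR-34c were not called. Rumen minus liver was -0.49 (95% interval -1.03 to 0.06, adjusted p = 0.0934) and jejunum minus liver was 0.47 (-0.15 to 1.09, adjusted p = 0.148). Without liver alfalfa hay 2 they were -0.44 and 0.52 and were not called either. Duodenum minus jejunum was 0.72 (0.13 to 1.32, adjusted p = 0.0686). With the cow as a block this last difference was called, at 0.72 with an adjusted p of 0.006.

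miR-34b was higher in mammary gland than in both intestinal segments. Duodenum minus mammary gland was -1.19 ± 0.197 (adjusted p = 1.08e-06) and jejunum minus mammary gland was -1.50 ± 0.219 (adjusted p = 1.06e-07). Within rice straw alone these were -0.66, which was not called, and -1.05, which was. Duodenum minus jejunum was 0.30 and was not called (adjusted p = 0.321). By mean level the 3 tissues that listed miR-34b had the same order as for miR-34c, the member from the same transcript.

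miR-449a had the reverse order in mammary gland, where it was lower than in duodenum by 0.62 (adjusted p = 0.00042), than in jejunum by 0.87 (adjusted p = 8.55e-06) and than in liver by 0.93 (adjusted p = 0.0023), the last being 0.86 without liver alfalfa hay 2. It was lower in rumen than in jejunum, at -0.52 (adjusted p = 0.0249). Within rice straw alone none of these 4 differences was called, at 0.41, 0.63, 0.58 and -0.10 in the same order. Within corn stover alone rumen minus jejunum was -0.30 and within alfalfa hay alone liver minus mammary gland was 1.16, and neither was called. The other 6 pairs were not called. Rumen minus liver was -0.58 (adjusted p = 0.0707) and was called at the same value with the cow as a block (adjusted p = 0.033). Upper-quartile scaling gave -1.17 for that pair and -0.46 for rumen minus duodenum, both called, against -0.27 as deposited for the latter (adjusted p = 0.221). Without liver alfalfa hay 2, rumen minus liver was -0.51, duodenum minus liver was -0.24 instead of -0.31, and jejunum minus liver was 0.0084 instead of -0.06, none of them called.

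These signs are relative to what other miRNAs did. The median difference of all miRNAs was 0.43 between rumen and liver, with 167 higher and 90 lower calls, and upper-quartile scaling moved it to -0.23, with 111 higher and 148 lower. Between rumen and mammary gland the median was 0.33, with 133 higher and 85 lower calls, and it was -0.01 after upper-quartile scaling, with 113 higher and 112 lower. The called differences of the members kept their sign under every scaling.

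On average the members together made up 194.0 CPM in rumen and 189.3 CPM in mammary gland, followed by 130.6 CPM in duodenum, 122.8 CPM in jejunum and 64.9 CPM in liver. Rumen and mammary gland thus had nearly the same mean sum. Single samples ran from 132 to 291 CPM in rumen and from 28.2 to 390 CPM in mammary gland. miR-34a was on average the largest part in both tissues, but the shares of the members differed. miR-34a supplied 95.7 ± 2.29% (SD, n = 18) of the family's reads in rumen and 60.1 ± 17.7% in mammary gland. miR-34c supplied 2.17 ± 1.63% in rumen and 33.4 ± 16.8% in mammary gland, where the samples ranged from 7.59 to 60.5%. In rumen the highest miR-34c share was 6.24%, so every mammary gland sample lay above every rumen sample. The lowest mammary gland share, 7.59% in alfalfa hay 1, rested on 6 reads of miR-34c. Shares are over 3 members in rumen, where miR-34b was not listed, and over 4 in mammary gland. Without miR-34b the mean miR-34c share of mammary gland was 35.1%.

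The other tissues were between these. miR-34a supplied 83.5% in duodenum, 85.9% in jejunum and 76.8% in liver, and miR-34c 11.1%, 7.87% and 10.2% of the family's reads. Liver had the largest mean share of miR-449a, 12.9 ± 10.5% (SD, n = 18), with samples from 1.5 to 37.6%. miR-34c exceeded miR-34a in 5 of 18 mammary gland samples (alfalfa hay 5, rice straw 4 and corn stover 1, 4 and 5) and in 0 samples of the other tissues. The median ratio of miR-34c to miR-34a was 0.616 in mammary gland and 0.0164 in rumen.

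**Figure D2:**
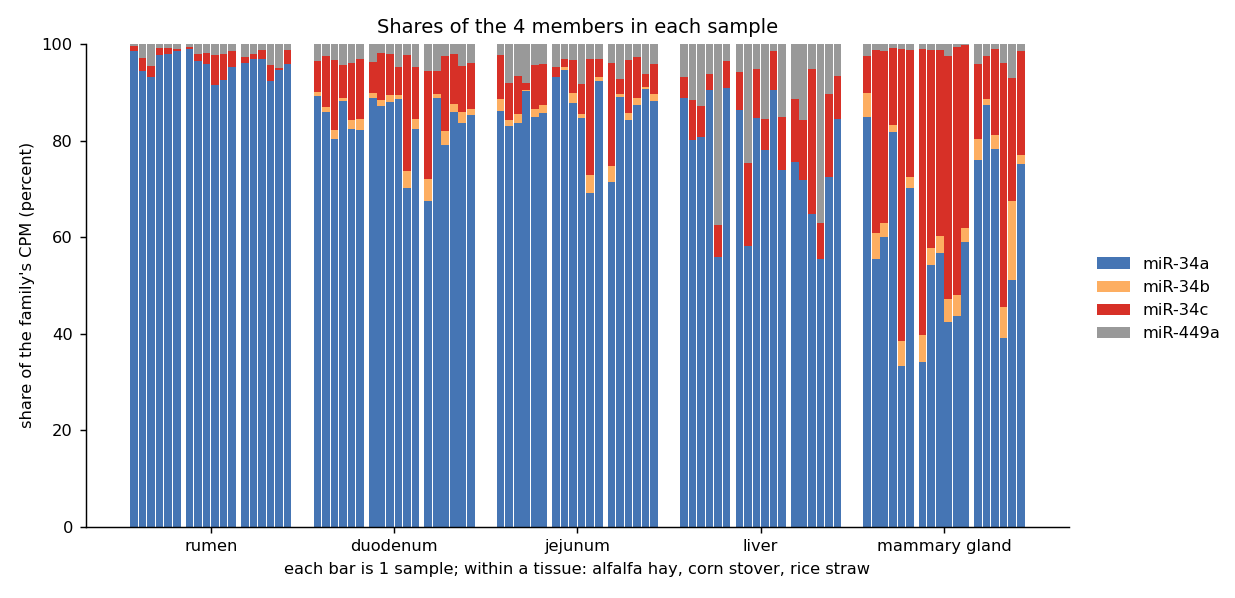
Share of each member in the summed CPM of the miR-34 and miR-449 family, in percent, per sample and tissue. miR-34a made up 95.7% of the family on average in rumen and 60.1% in mammary gland, where the miR-34c share ranged from 7.59 to 60.5%.

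Among the 18 mammary gland samples miR-34a and miR-34c were spread more widely than the rarer members. The SD of log2(CPM + 1) was 1.33 for miR-34c, the 8th widest of 323 miRNAs, and 1.06 for miR-34a, the 58th widest, against a median of 0.79 over all. It was 0.61 for miR-34b and 0.46 for miR-449a, ranks 253 and 298. The highest sample was 23.6-fold above the lowest for miR-34c, 22.1-fold for miR-34a and 6.26-fold for miR-34b. Without the 3 shallow libraries the SD was 0.824 for miR-34c and 0.882 for miR-34a, against 0.615 for miR-34b, 0.501 for miR-449a and a median of 0.539 over all miRNAs. The rank of miR-34c was then 36 of 323 and that of miR-34a 22. With a pseudocount of 0.1 CPM miR-34c ranked 50, and by the SD within diets 32. A pseudocount of 5 CPM gave rank 13 and the interquartile range 19. The lowest miR-34c value, in alfalfa hay 1, rested on 6 reads, and the next, in rice straw 5, on 11 reads.

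miR-34c was also among the most variable miRNAs in jejunum (SD 1.11, 8th of 336, median 0.365) and duodenum (0.714, 17th of 336, median 0.320). miR-449a was the 4th most variable of 326 miRNAs in liver (SD 1.07, median 0.405), where miR-34a was 17th with 0.829. In rumen and liver miR-34c ranked 33 of 335 and 20 of 326. miR-34a was narrow in rumen, where its SD of 0.276 was rank 303 of 335 (median 0.465). It was also below the median of all miRNAs in duodenum (0.287, rank 207 of 336) and jejunum (0.279, rank 259 of 336).

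Other measures of the mammary gland libraries moved with the members. Across the 18 samples, miR-34a had a Pearson r of 0.807 with the summed epithelial markers, 0.802 with the summed immune cell markers, -0.750 with the red blood cell markers and 0.671 with the number of reads, all on log scales. For miR-34c the 4 values were 0.619, 0.659, -0.675 and 0.665, and for miR-34b they were 0.303, 0.407, -0.370 and 0.249. The stratified epithelial markers had r = 0.070 with miR-34a, 0.574 with miR-34b and 0.605 with miR-34c, and the striated muscle markers 0.680, 0.576 and 0.676. The remaining lists (liver, intestine, stroma and endothelium) had r between -0.564 and 0.602 with these 3 members, and miR-449a had r between -0.101 and 0.312 with all lists of cell markers and the number of reads. These are descriptions, since all quantities come from the same libraries and share their totals, and the part of cell make-up or depth in the members' spread was not tested.

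The diet comparison asked whether forage quality changed the miRNAs of each tissue, and it was fitted within each tissue by limma. By the F test over the 3 diets the share of all miRNAs called was 23.7% in jejunum, 3.67% in mammary gland and 1.47% in rumen, and it was 0% in both duodenum and liver. The counts of 0 from limma came with 37 of 338 miRNAs in duodenum and 17 of 329 in liver at an unadjusted p under 0.05. On recovered reads, edgeR called 0 in both tissues and DESeq2 called 0 in duodenum and 2 in liver.

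None of the members was called in rumen, duodenum, jejunum or liver. The 14 tests had adjusted p-values of 0.330 to 0.975, the smallest unadjusted p being 0.0620 for miR-34a in duodenum, and the count stayed at 0 under every alternative tried, edgeR and DESeq2 included. In jejunum, the tissue with the most diet calls, miR-34a had means of 111 CPM on alfalfa hay, 100 CPM on corn stover and 104 CPM on rice straw. miR-34c had jejunum means of 9.75, 10.5 and 10.6 CPM in the same order. In liver, miR-34a had means of 54.8 ± 22.6 CPM on alfalfa hay, 66.2 ± 65.3 CPM on corn stover and 32.3 ± 20.5 CPM on rice straw (SD, n = 6 each), and the groups overlapped.

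In mammary gland miR-34c differed between corn stover and rice straw. The 6 corn stover samples held 151, 76.8, 124, 80.97, 88.7 and 84.8 CPM, and the 6 rice straw samples held 11.7, 16.9, 65.5, 38.9, 7.20 and 27.6 CPM. Alfalfa hay lay between, with 6.40, 43.1, 73.7, 62.7, 121 and 58.8 CPM. Every corn stover sample was above every rice straw sample, which was true of 14.7% of the 327 miRNAs tested, and the alfalfa hay samples overlapped both.

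The means of miR-34c were 101 ± 29.9 CPM on corn stover, 60.9 ± 37.5 CPM on alfalfa hay and 28.0 ± 21.7 CPM on rice straw (SD, n = 6 each). Corn stover minus rice straw was 2.11 ± 0.557 on the log2 scale (95% interval 0.96 to 3.27, adjusted p = 0.0175 by limma). Alfalfa hay minus corn stover was -1.06 (adjusted p = 0.429) and alfalfa hay minus rice straw was 1.05 (adjusted p = 0.41), and neither was called. The F test over the 3 diets did not pass, with an adjusted p of 0.0645. The difference between corn stover and rice straw was not called without rice straw 5, the sample with 7.20 CPM, at 1.82 with an adjusted p of 0.0544.

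The contrast of corn stover and rice straw moved many mammary gland miRNAs in the same direction. It called 25.1% of them, and 23.5% were called higher on corn stover, that is 77 higher and 5 lower, with a median difference of 0.63. That split depended on the scaling: upper-quartile scaling gave 10 higher and 31 lower with a median of -0.13, TMM 16 and 22, edgeR 15 and 36, and DESeq2 27 and 56. miR-34c stayed higher on corn stover and stayed called in each of these, at 1.22 with upper-quartile scaling, 1.38 with TMM, 1.30 with edgeR and 1.27 with DESeq2. The contrasts with alfalfa hay called 0% each. For alfalfa hay against corn stover 33 miRNAs had an unadjusted p under 0.05 with limma, and edgeR and DESeq2 called 0. For alfalfa hay against rice straw limma had 33 as well, edgeR called 0 and DESeq2 called 13.

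miR-34b was also called in this contrast, but less firmly. Its corn stover samples held 14.5, 6.60, 11.2, 7.69, 7.74 and 6.54 CPM and its rice straw samples 3.20, 2.31, 10.4, 4.95, 4.58 and 2.41 CPM. The groups overlapped through rice straw 3, which was above 4 of the 6 corn stover samples, while the other 5 rice straw samples were below all of them. The difference was 0.92 ± 0.338 (95% interval 0.22 to 1.62, adjusted p = 0.0486). It was not called after upper-quartile scaling, at 0.13, nor with edgeR, at 0.36, nor with DESeq2, at 0.33, and leaving out any of 16 single libraries also ended the call.

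The 2 other members showed no called difference in mammary gland on the deposited values. miR-34a held 109 ± 103 CPM on rice straw, 134 ± 98.3 CPM on alfalfa hay and 108 ± 42.9 CPM on corn stover (SD, n = 6 each). Corn stover minus rice straw was 0.53 (adjusted p = 0.511), and the sign turned under upper-quartile scaling, at -0.38. miR-449a held 3.15, 2.44 and 2.39 CPM on rice straw, alfalfa hay and corn stover, and the difference was -0.35 (adjusted p = 0.42). With upper-quartile scaling and with DESeq2 miR-449a was lower on corn stover by more than this, and those values are given below.

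**Figure D3:**
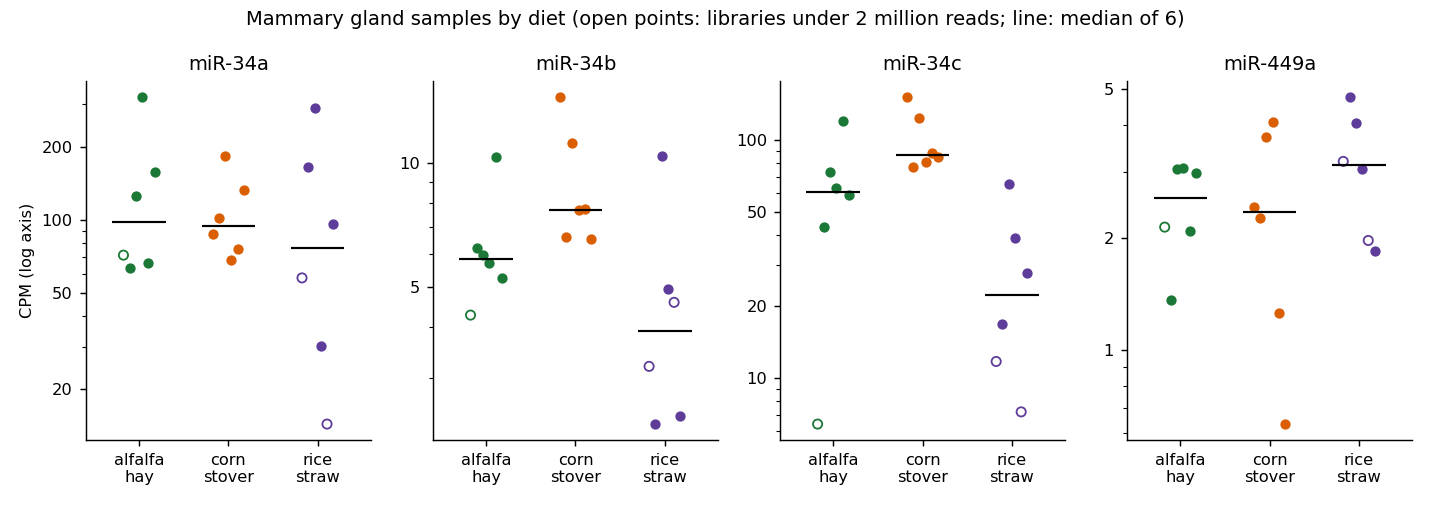
Level of each member in mammary gland by diet, in CPM on a log axis; each point is 1 cow (6 per diet), the lines mark group medians, and libraries under 2000000 reads are drawn as open points. For miR-34c the corn stover samples (76.8 to 151 CPM) lay above all rice straw samples (7.20 to 65.5 CPM), and for miR-34a the diets overlapped.

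The make-up of the family in mammary gland differed accordingly. miR-34c supplied 46.4 ± 8.57% of the family's reads on corn stover, 30.6 ± 18.6% on alfalfa hay and 23.3 ± 14.5% on rice straw (SD, n = 6 each). The median ratio of miR-34c to miR-34a was 0.966, 0.482 and 0.257 in that order. Rice straw 4 lay apart from its group with a miR-34c share of 50.5%, so the diets overlapped in this measure.

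Marker lists moved in the same contrast. The summed epithelial markers ranged from 38600 to 58217 CPM on corn stover and from 10598 to 45143 CPM on rice straw, with none of the 5 markers at 0 in any sample, and 3 of the 5 were called higher on corn stover. Rice straw 4 and 5 had the lowest epithelial sums, 11549 and 10598 CPM, and without both libraries the miR-34c difference was 1.95 (adjusted p = 0.0491). The summed immune cell markers had medians of 6894 CPM on corn stover and 3298 CPM on rice straw, with 3 of 7 called higher and 1 lower. The stromal markers had medians of 123012 and 183025 CPM, with 1 of 6 called higher and 1 lower. Of the red blood cell markers 2 of 3 were called higher, although their sum had a lower median on corn stover (1732 CPM) than on rice straw (2496 CPM). Of the endothelial markers 1 of 2 was called higher, of the intestinal 2 of 3, of the striated muscle 2 of 4 tested, and of the stratified epithelial and liver markers 0. These counts depended on the scaling as well: with upper-quartile scaling 1 epithelial marker and 1 striated muscle marker were called higher, 1 stromal and 2 immune cell markers were called lower, and no other marker was called. The 3 shallow libraries were on rice straw and alfalfa hay, and without them the miR-34c difference was 1.53 (adjusted p = 0.007). The part of cell make-up in the difference was not tested.

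Whether the diet effect differed between tissues was tested as a tissue by diet interaction over the 289 miRNAs listed everywhere, of which 45.7% were called. The interaction was not called for miR-34c (adjusted p = 0.0951), miR-34a (adjusted p = 0.678) or miR-449a (adjusted p = 0.715). For miR-34c it was called with a pseudocount of 5 CPM (adjusted p = 0.0248) and not with one of 0.1 CPM (0.167) or with upper-quartile scaling (0.438). These fits had no term for the cow, and with the cow as a random block the adjusted p of miR-34c by the limma F test was 0.0874.

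Other miRNAs that p53 is known to induce or to process were followed through a list of 14, of which miR-605 was not listed in any tissue. Many of them are also in the marker lists. miR-141, miR-200a, miR-200b and miR-200c are epithelial markers, miR-192, miR-194 and miR-215 intestinal, and miR-143 and miR-145 stromal. The counts of this list are therefore not separate from those of the markers. Between rumen and liver, where miR-34a differed most, 8 of 13 were higher in rumen and 5 lower, against 167 and 90 of 304 among all miRNAs. Their median difference of 0.48 was close to the 0.43 of all miRNAs. The 3 with the largest differences were the epithelial miR-200c at 6.19 and the liver and intestinal miR-192 and miR-194 at -5.57 and -5.51. Between rumen and mammary gland 3 were higher and 4 lower, against 133 and 85 of 303 among all, with miR-16b at 1.54, miR-200c at -1.41 and miR-141 at -1.29.

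In mammary gland, 6 of the 13 were called higher on corn stover than on rice straw and 1 lower, with a median difference of 1.09 against 0.63 for all miRNAs, of which 77 of 327 were called higher and 5 lower. Among the 6 were the epithelial markers miR-141 and miR-200b and the intestinal markers miR-194 and miR-215, already counted with the marker lists. After upper-quartile scaling 1 of the 13 was higher and 1 lower, with a median of 0.17 against -0.13 for all, and TMM, edgeR and DESeq2 also gave 1 and 1. The largest were miR-15a at 1.93 (adjusted p = 0.012), miR-215 at 1.55 (adjusted p = 0.043) and miR-16b at 1.53 (adjusted p = 0.026). Of these only miR-15a stayed called after upper-quartile scaling, at 1.01 (adjusted p = 0.015), and it was also the one higher with TMM, edgeR and DESeq2. miR-143, a smooth muscle miRNA, was the one called lower under each. miR-15a and the miR-16 members repress cell cycle genes, as the miR-34 members do. Beside all miRNAs tested, the list's counts in the remaining pairs of tissues were as follows. Between rumen and duodenum 4 were higher and 5 lower, against 142 and 96 of 314 among all, and between rumen and jejunum 5 and 6, against 134 and 97 of 313. Between duodenum and jejunum the list had 7 higher and 1 lower, against 33 and 47 of 331. Between duodenum and liver 11 were higher and 1 lower, against 153 and 107 of 306, and between jejunum and liver the list had the same counts, against 160 and 102 of 307. Against mammary gland, duodenum had 6 higher and 4 lower (118 and 118 of 311 among all), jejunum 7 and 5 (112 and 108 of 312), and liver 4 and 5 (89 and 110 of 306).

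Members were compared with each other across cows within each tissue, which gave 24 relations. miR-34b and miR-34c, the pair from one transcript, rose and fell together in the 3 tissues that listed both. In duodenum Pearson's r of log2(CPM + 1) was 0.916 and Spearman's rho 0.876 over 18 samples (permutation test, p = 1e-05 for r, the smallest the permutations can give, adjusted p = 0.00012). Leaving out the 2 samples farthest from the median gave 0.822. In jejunum r was 0.947 and rho 0.926 (permutation test, adjusted p = 0.00012), and 0.932 without the 2 farthest. Within diets r lay between 0.885 and 0.960 in duodenum and between 0.940 and 0.976 in jejunum, with 6 samples each.

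In mammary gland r between miR-34b and miR-34c was 0.772 and rho 0.899 over 18 samples (permutation test, p = 0.00019, adjusted p = 0.00152), and 0.731 without the 2 farthest samples. There it was less stable: deviations from the diet means gave 0.606 (permutation test, adjusted p = 0.0539), and r within alfalfa hay, corn stover and rice straw was 0.758, 0.977 and 0.554. After upper-quartile scaling the value was 0.06, whereas it was 0.912 in duodenum and 0.944 in jejunum. miR-34c was the more abundant of the pair in every tissue, with a median ratio to miR-34b of 6.18 in duodenum, 5.85 in jejunum and 10.7 in mammary gland. The other 21 relations, among them every one of miR-34a and miR-449a, were not called on the deposited values. Their r ran from -0.298 to 0.550, and the smallest adjusted p was 0.1, for miR-34a and miR-34c in liver, where r was 0.550 and 0.231 without the 2 farthest samples (permutation tests). For deviations from the diet means this relation was called, with r = 0.728 (adjusted p = 0.00312 by permutation), and r within diets ran from 0.717 to 0.790. miR-34c and miR-449a in mammary gland had r = -0.055 on the deposited values and were called after upper-quartile scaling, with r = -0.666 (adjusted p = 0.0231 by permutation).

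**Figure D4:**
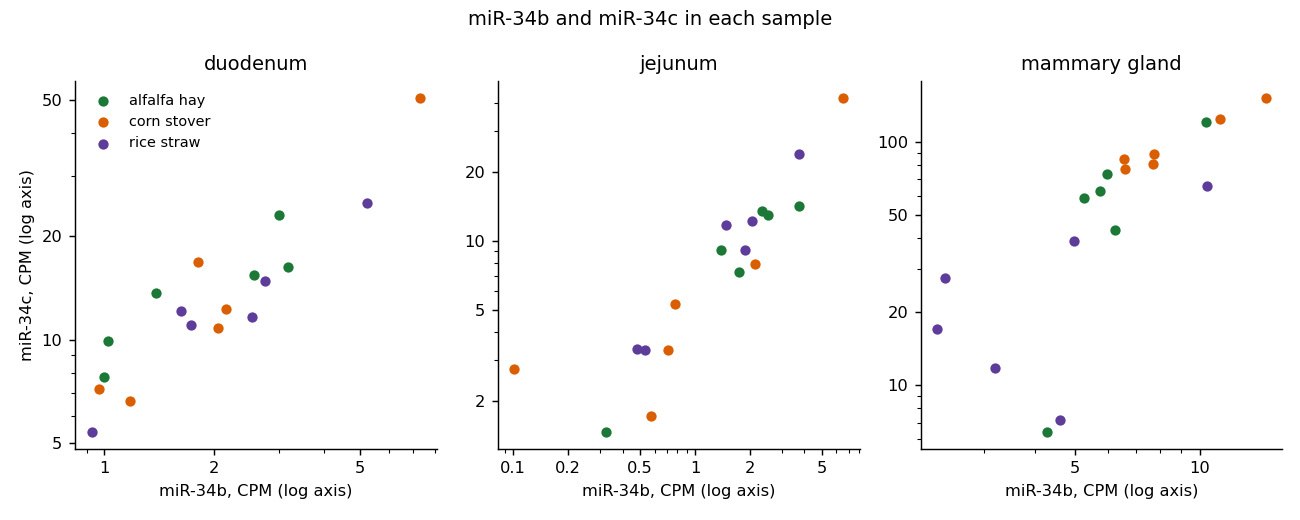
miR-34b against miR-34c in duodenum, jejunum and mammary gland, both in CPM on log axes; each point is 1 of 18 cows, coloured by diet. The points followed a line in duodenum (r = 0.916) and jejunum (r = 0.947) and scattered more in mammary gland (r = 0.772).

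The same cow, as read from the numbers in the sample titles, was then followed across tissues, a comparison chosen after the values had been seen. It gave 33 relations, of which 0 passed correction on the deposited values and 3 for deviations from the diet means. The largest were those of miR-34b (r = 0.664, rho = 0.529) and miR-34c (r = 0.633, rho = 0.509) between duodenum and jejunum, each with an adjusted p of 0.0766 by permutation over 18 cows. Among 331 miRNAs these ranked 5 and 9, and the median r of all was 0.130. Without the 2 farthest samples they were 0.350 and 0.398. Between duodenum and liver miR-34c had r = 0.598 and rho = 0.496 (adjusted p = 0.0892 by permutation), rank 4 of 306, and 0.550 without the 2 farthest. These were the 3 relations called for deviations from the diet means, with r of 0.700 for miR-34b and 0.659 for miR-34c between duodenum and jejunum and 0.657 for miR-34c between duodenum and liver (adjusted p = 0.0377 each by permutation). Leaving out the 2 farthest samples was not combined with that setting.

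One cow, as read from the numbers in the sample titles, stood out in these relations. Corn stover 5 had the highest miR-34c of all 18 cows in rumen (10.9 CPM), duodenum (50.8 CPM), jejunum (42.1 CPM) and liver (17.4 CPM), and was 4th in mammary gland (88.7 CPM). It was also highest for miR-34b in duodenum (7.31 CPM) and jejunum (6.53 CPM), and for miR-34a in liver, where it held 199 CPM against a median of 39.1 CPM. Its miR-34a ranked 2 of 18 in duodenum (147 CPM against a median of 108 CPM), 7 in jejunum and 11 in both rumen and mammary gland. Rice straw 1 was second for miR-34c in duodenum (25.1 CPM), jejunum (23.98 CPM) and liver (12.5 CPM) but 16th in mammary gland (11.7 CPM). Corn stover 5 had the shallowest duodenum library, with 4925942 reads, and rice straw 1 the shallowest liver library, with 2004942 reads. Whether depth had a part in these levels was not tested.

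**Figure D5:**
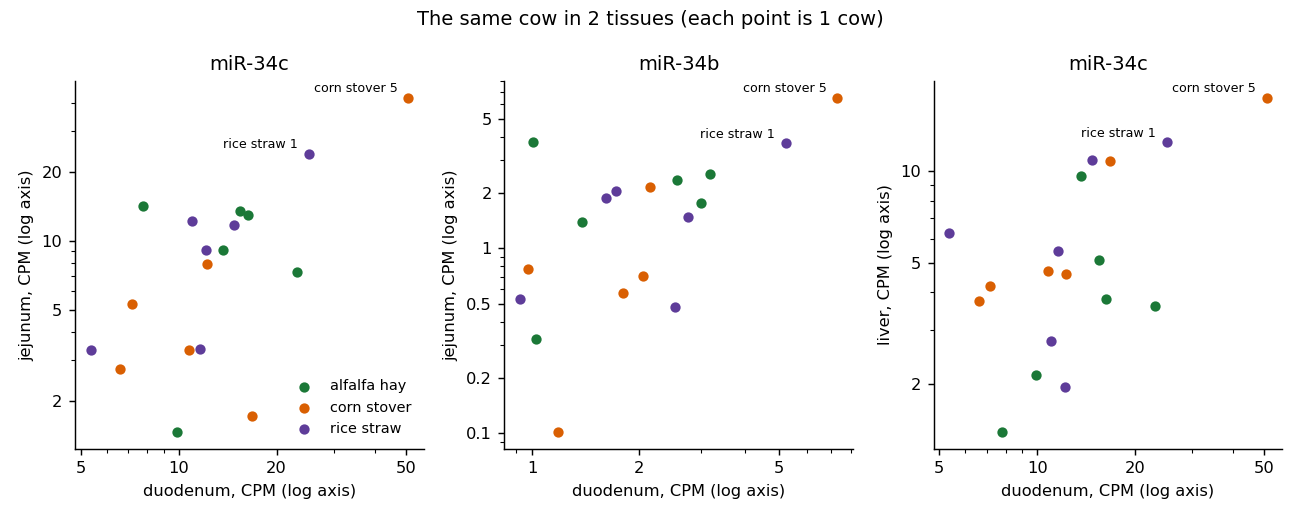
The same cow in 2 tissues, in CPM on log axes, with 1 point per cow coloured by diet: miR-34c and miR-34b in duodenum against jejunum, and miR-34c in duodenum against liver. Cows were matched by the numbers in the sample titles. Corn stover 5, named in the panels, held the highest miR-34c in duodenum (50.8 CPM), jejunum (42.1 CPM) and liver (17.4 CPM).

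The miRNAs whose pattern was most like each member's were named by Pearson's r of log2(CPM + 1), as a description without a test, since all points share libraries. Over the 18 mammary gland samples and 323 miRNAs, miR-34a was most like miR-218 (0.882), miR-374a (0.853) and miR-16a (0.837). miR-34c was most like miR-30c (0.951), miR-15a (0.938) and miR-30e-5p (0.937). miR-34b was most like miR-34c (0.772), followed by miR-28 (0.763) and miR-485 (0.758). For miR-449a the nearest were miR-146b (0.665), miR-490 (0.519) and miR-146a (0.474), so no miRNA followed it closely. The 3 named for miR-34a had r of 0.727, 0.679 and 0.775 with the log number of reads. The 3 named for miR-34c had 0.729, 0.691 and 0.801, and the 3 for miR-449a -0.107, 0.495 and 0.706. Those named for miR-34b had 0.665, 0.541 and 0.616. The part of depth in these likenesses was not tested.

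Over all 90 samples and 289 miRNAs, in which differences between tissues are included, miR-34a was most like miR-24-3p (0.853), miR-218 (0.805) and miR-374a (0.795). miR-218 and miR-374a were near miR-34a in both scopes, which are not separate, since the 18 mammary gland samples are among the 90. miR-34c was most like miR-29c (0.825), miR-362-3p (0.775) and miR-502a (0.729), none of which was among its nearest within mammary gland. For miR-449a the nearest were miR-214 (0.492), miR-199a-3p (0.444) and miR-874 (0.405).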

How the data were processed

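Small RNA libraries of 5 tissues from 18 cows were sequenced on an Illumina instrument. The authors filtered reads with CASAVA (version 1.8), trimmed and aligned reads over 15 nt to bovine precursors of miRBase (version 22) with sRNAbench (seed length 20, 2 mismatches, at most 10 mappings), and divided each miRNA's reads by all reads mapped to miRNAs. The deposited values are CPM, 1 table per tissue. A miRNA appears in a tissue's table only if it exceeded 1 CPM in at least 9 of 18 samples. All values were whole multiples of the value of 1 read (100% within 0.02 reads), so reads per library were recovered and used for the edgeR and DESeq2 alternatives.

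Members, gene lists and tests were chosen with earlier results of these data known. Named were the 4 members, the p53-linked list with its 3 largest differences where members were described, marker lists, and the 3 miRNAs most like each member. log2(CPM + 1) was fitted with limma 3.58.1 in R 4.3.3 on miRNAs above 1 CPM in at least 50% of the samples compared, for pairs of tissues, for diets within a tissue, and for the tissue by diet interaction, with Benjamini-Hochberg adjustment over all miRNAs and a threshold of 0.05. Intervals are 95%. Alternatives were pseudocounts of 0.1 and 5 CPM, upper-quartile and TMM scaling, a mean of at least 10 CPM, no filter, edgeR 4.0.16 (quasi-likelihood), DESeq2 1.42.0, a replicate block, each diet alone, libraries under 2000000 reads left out, and each library left out in turn. Leaving out mammary gland rice straw 4 and 5, the correlations between tissues of a cow, and the lists under other scalings, were added after the data were seen. Correlations used 100000 permutations (SciPy 1.17.1, Python 3.11.15). The fits were checked on simulated data.

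All 5 tissues came from each cow, and the diet and number in a sample's title were read as the cow. The deviations of 289 miRNAs from group means correlated between duodenum and jejunum of the same number at 0.197 on average (14 of 18 pairs over 0.1), and at 0.016 to 0.108 in the other pairs of tissues. For unlike numbers the means were -0.040 and -0.021 to -0.0036. Within a diet, a sample matched its own number best in 11 of 18 cases for duodenum and jejunum. In the other pairs of tissues this held in 2 (rumen and duodenum) to 7 (liver and mammary gland) of 18, so the reading is less well backed there. Cows are the replicates. Counting error only is covered by the values of 3 reads given as floors, since the libraries carried no molecular identifiers.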

Additional observations from a re-analysis of the deposited data

Results flagged for a closer look

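Groups of 6 samples were searched for a highest or lowest sample whose gap to the next exceeded Dixon's 95% limit. The search used CPM, not the log scale of the other tests. Chance passes the limit in about 1 in 20 groups if values are normally distributed, and whether CPM were was not tested. Of 54 groups 9 passed, all at the high end, and this count is therefore not compared with that rate. In the corn stover 5 cow, miR-34b was at 7.31 CPM in duodenum (next 2.15 CPM) and 6.53 CPM in jejunum (next 2.15 CPM). In the same cow, miR-34c was at 50.8 CPM in duodenum (next 16.8 CPM) and 42.1 CPM in jejunum (next 7.93 CPM), and miR-34a was at 199 CPM in liver (next 51.8 CPM). By the numbers in the sample titles these 5 values share a cow, and miR-34b and miR-34c share a transcript, so they are not independent.

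In liver, rice straw 1 held 72.3 CPM of miR-34a, and the next rice straw sample held 35.9 CPM. In mammary gland, alfalfa hay 4, the deepest library of that tissue, held 319 CPM of miR-34a, and the next alfalfa hay sample held 157 CPM. For miR-34b in mammary gland, alfalfa hay 5 held 10.4 CPM against 6.23 CPM in the next, and rice straw 3 held 10.4 CPM against 4.95 CPM in the next.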

How the results depend on the processing

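Of the 20 tissue differences called, 8 stayed called under every alternative, and 12 lost their call in at least one. Most losses came with 1 diet alone, where each tissue has 6 samples. Within rice straw alone the values not called were -0.10 for miR-449a (rumen minus jejunum), 1.36 (adjusted p = 0.0509) for miR-34a (rumen minus mammary gland), -0.66, -0.79 and 0.41 for miR-34b, miR-34c and miR-449a (duodenum minus mammary gland), -1.24 and 0.63 for miR-34c and miR-449a (jejunum minus mammary gland), and -1.27 and 0.58 for miR-34a and miR-449a (liver minus mammary gland). Within corn stover alone they were -1.21 (adjusted p = 0.052) for miR-34c (rumen minus duodenum), -0.15 and -0.30 for miR-34c and miR-449a (rumen minus jejunum) and 0.95 for miR-34c (duodenum minus liver). Within alfalfa hay alone they were 0.56 for miR-34a (rumen minus mammary gland) and 1.16 for miR-449a (liver minus mammary gland). The first of these was also lost with edgeR (0.36) and DESeq2 (0.38).

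Calls gained were mostly of miR-449a and miR-34c against liver. miR-449a gained with upper-quartile and TMM scaling for rumen minus duodenum (-0.46 and -0.45), with upper-quartile scaling, edgeR and DESeq2 for duodenum minus liver (-0.71, -0.86 and -1.07), and with edgeR and DESeq2 for jejunum minus liver (-0.66 and -0.78). For rumen minus liver, upper-quartile, TMM, edgeR and DESeq2 gave -1.17, -0.82, -1.26 and -1.49 for miR-449a and -1.07, -0.73, -0.89 and -1.13 for miR-34c. Leaving out single libraries moved these from -0.66 to -0.45, called without any of 7 libraries, and from -0.57 to -0.39, called without any of 3. miR-34c in duodenum minus jejunum was called with upper-quartile scaling (0.78), and single libraries left out gave 0.61 to 0.86, the last without jejunum corn stover 5.

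The cow as replicate block left the value of miR-449a in rumen minus liver at -0.58 and of miR-34c in duodenum minus jejunum at 0.72, and both became called. For diets, a replicate block by number, which pairs different cows, changed only the F test of miR-34c in mammary gland (adjusted p = 0.0298). It changed no other call.

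Signs turned only for differences that were not called. These were miR-449a for rumen minus duodenum (0.12, rice straw alone), rumen minus mammary gland (-0.0042, alfalfa hay alone) and jejunum minus liver (0.050, rice straw alone, and -0.14 to 0.069 with single libraries left out). They were miR-34c for jejunum minus liver (-0.11, corn stover alone), and miR-34a for duodenum minus jejunum (-0.16, rice straw alone) and duodenum minus mammary gland (-0.041, shallow libraries left out). miR-34a in jejunum minus mammary gland turned with upper-quartile scaling (-0.086), edgeR (-0.070), DESeq2 (-0.10), alfalfa hay alone (-0.031), corn stover alone (-0.044) and without shallow libraries (-0.089).

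In mammary gland, corn stover minus rice straw of miR-34a turned with upper-quartile scaling (-0.38), TMM (-0.22), edgeR (-0.52), DESeq2 (-0.57), without shallow libraries (-0.10) and without rice straw 4 and 5 (-0.33). For miR-34b it was not called with a pseudocount of 0.1 CPM (1.08), upper-quartile scaling (0.13), TMM (0.27), edgeR (0.36), DESeq2 (0.33), without shallow libraries (0.88) or without rice straw 4 and 5 (1.004), and single libraries left out gave 0.78 to 1.15. For miR-34c single libraries left out gave 1.82 to 2.42, and alfalfa hay minus rice straw gave 0.76 to 1.59, the last called without alfalfa hay 1, which had 6 reads of miR-34c (adjusted p = 0.0346). miR-449a was lower on corn stover with upper-quartile scaling (-1.02) and DESeq2 (-1.10).

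The F test of miR-34c in mammary gland passed with a pseudocount of 5 CPM (adjusted p = 0.0499), DESeq2 (0.0169), without shallow libraries (0.0235) and without rice straw 3, rice straw 6 or alfalfa hay 1, its range being 0.00462 to 0.153. That of miR-34b ranged from 0.0382 to 0.282 and passed without rice straw 3. The interaction of miR-34c passed with a pseudocount of 5 CPM (adjusted p = 0.0248).

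The correlation of miR-34b with miR-34c was not called within single diets of 6 cows, where r was 0.885, 0.960 and 0.947 in duodenum, 0.940, 0.952 and 0.976 in jejunum and 0.758, 0.977 and 0.554 in mammary gland, nor in mammary gland for deviations from diet means (0.606) or after upper-quartile scaling (0.060). Relations called only under an alternative were those of miR-34a with miR-34c in liver and of 3 same-cow pairs (deviations from diet means) and of miR-34c with miR-449a in mammary gland (upper-quartile scaling). The spread of miR-449a relative to all miRNAs in mammary gland was 0.588, 0.322 with a pseudocount of 5 CPM and 0.929 without shallow libraries. In all, 584 of 671 alternative values kept direction and call. The cause of the changes was not tested.

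A mean of at least 10 CPM leaves out miR-34b, miR-449a and, in some tissues, miR-34c, so it gives no value for them. Depth limits miR-34b and miR-449a most, since 3 reads equalled up to 3.20 CPM. Dividing by a library's miRNA total makes each level depend on the most abundant miRNAs.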
